A study of Homo sapiens with 8 samples.

Results

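NRF2, encoded by NFE2L2, is a transcription factor that switches on antioxidant and detoxifying genes when cells meet oxidants or electrophiles. KEAP1 holds NRF2 in the cytoplasm and hands it to a CUL3 ubiquitin ligase for destruction. Once released, NRF2 pairs with small MAF proteins on antioxidant response elements, and BACH1 can occupy the same elements as a repressor. The target genes described here are NQO1, GCLM, GCLC, TXNRD1, SRXN1, SLC7A11, OSGIN1, TXN and HMOX1. They were chosen by name as commonly used NRF2 targets, with earlier results of these data known. The deposited table held a row for all 9 of them among 60564 genes.

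Polyadenylated RNA was sequenced from AB8/13, a conditionally immortalised human podocyte line. Podocytes are the epithelial cells on the outer side of the kidney's filtering capillaries. For the ATOH8 knockdown group (4 libraries), cells received an shRNA against ATOH8, which encodes a transcription factor of the helix-loop-helix class. For the control group (4 libraries), the shRNA was a non-targeting one. In both groups the line was expanded at 33 °C and kept at 37 °C for 5 days to differentiate, and the shRNA was delivered with a lipid reagent. The number of shRNAs against ATOH8 is not stated in the labels, so an effect of ATOH8 and of an unrelated target of the shRNA cannot be told apart. The libraries of a group are called biological replicates without saying whether cultures were separate, so p-values measure only how these libraries vary, and that spread may be technical.

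Total counts ran from 23229160 to 25277868 in knockdown libraries and from 21108695 to 27109043 in control libraries. ATOH8 was at 41.7% of its control level in knockdown libraries (log2 fold change -1.26, SE 0.127, edgeR adjusted p = 1.78e-09). Its level was low, with 51 to 71 counts in knockdown and 122 to 175 counts in control libraries. Of the podocyte markers, NPHS1 (nephrin) had 2 to 6 counts in knockdown and 0 to 2 in control libraries. WT1, a podocyte transcription factor, was at 4.95 ± 0.551 CPM in knockdown and 5.61 ± 0.526 CPM in control libraries (SD, n = 4 each). CPM are counts scaled to a common library size. Counts of marker genes that rose or fell are to be read against all genes tested, of which 25.2% rose and 25.9% fell (51.1% in all) by the test described below. Of 8 listed podocyte markers 4 could be tested, of which 1 rose and 2 fell, and their summed level was 47.3 to 55.2 CPM in knockdown and 52.4 to 55.3 CPM in control libraries. These sums add markers that rose to markers that fell, so their likeness does not describe the single genes. Of 5 tested mesangial and pericyte markers 4 rose and 1 fell, and their summed levels were 184 to 202 CPM in knockdown against 95.2 to 99.4 CPM in control libraries, with THY1 at 19.1 against 1.69 CPM and ITGA8 at 0 to 1 counts in any library. Most of that difference was CSPG4, at 83.4 CPM in knockdown and 22.8 CPM in control libraries. Of 3 tested endothelial markers 2 rose, and the sum was 8.01 to 9.16 CPM in knockdown against 1.35 to 2.33 CPM in control libraries, with EMCN at 0 and PECAM1 at 0 to 1 counts. TIE1 made up most of this sum, at 6.77 CPM in knockdown and 1.05 CPM in control libraries. VWF, which rose as well, was at 0.858 and 0.430 CPM. Of 3 tested leukocyte markers 2 rose, and the sum was 103 to 113 CPM in knockdown against 76.5 to 86.4 CPM in control libraries, of which CD68 made up 106 and 79.3 CPM on average, with PTPRC at 0 to 2 counts. Of 2 tested proximal tubule markers 1 rose and 1 fell, and the sum was 2.20 to 2.67 CPM in knockdown against 4.42 to 6.94 CPM in control libraries, with LRP2 at 0 to 1 counts. AQP1, the one that fell, made up most of the control sum, at 1.14 CPM in knockdown and 5.19 CPM in control libraries. The fall of the podocyte marker PODXL did not pass without knockdown replicate 3 (edgeR adjusted p = 0.0679), and the rise of the tubule marker CUBN, with overlapping groups, did not pass without control replicate 4 (edgeR adjusted p = 0.0560). The part of these marker differences in the values below was not tested, and in bulk RNA fewer cells of a type and less RNA per cell cannot be told apart.

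The element through which NRF2 acts has the core TGACNNNGC. RefSeq promoter sequences (GRCh38.p14, 250 bases before to 50 bases after an annotated start) were at hand for 7 of the 9 genes, not for SLC7A11 and HMOX1. The core, searched on both strands, was found for GCLM and TXNRD1, and TXNRD1 has more than 1 annotated start. By comparison, 13.3% of the 35116 promoters searched hold the core. That share counts promoters and not genes, and a gene with more than 1 promoter has more than 1 chance of a match. Sequence outside these promoters was not searched, so NQO1, GCLC, SRXN1, TXN and OSGIN1 may hold the core elsewhere. The matches are printed because they are the nearest sequence in these promoters to the known binding element, with the core in capitals and read on the strand that carries it. The first lies with its centre 30 bases before the GCLM start, and the others lie 95 and 4 bases before one TXNRD1 start and 98 bases before another.
GCLM, chr1:93909445-93909474, plus strand: ctggaagacaaTGACTAAGCagaaatcgta
TXNRD1, chr12:104215670-104215699, plus strand: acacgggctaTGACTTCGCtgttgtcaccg
TXNRD1, chr12:104215761-104215790, minus strand: cctgtgggaacTGACGGAGCcgaaggacgc
TXNRD1, chr12:104286920-104286949, minus strand: cagagtcagaaTGACAAAGCagaaatccac
The GCLM window and the last TXNRD1 window were identical at 20 of 30 bases aligned on the core, including 8 of the 9 core letters, the 2 bases before it and the 7 bases after it. The other pairs of windows were identical at 12 to 14 bases. In every pair the core letters other than NNN are identical because the search fixed them. None of the matches overlapped the AP-1 site TGANTCA, which was present in the OSGIN1 promoter and in 7.71% of all promoters searched. A match describes letters in the window and not a bound site.

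The comparison asked how expression differed between ATOH8 knockdown and control cells. Most of the classical targets were lower in knockdown: NQO1, GCLM, GCLC, TXNRD1, TXN and SRXN1 fell, to between 62.1% and 86.7% of the control level. HMOX1 and SLC7A11 rose, to 138% and 124% of it, and OSGIN1 did not pass the test. By edgeR's quasi-likelihood test with Benjamini-Hochberg adjustment over all 16884 genes tested (threshold 0.05), 8 of the 9 genes changed, against 51.1% of all genes tested. The 6 that fell compare with 25.9% of all genes tested that fell, and the 2 that rose with 25.2% that rose. The median log2 fold change of the 9 genes was -0.28, against 0.00 over all genes tested, and the median size of change was 0.37, against 0.19. In CPM, knockdown and control libraries did not overlap for 8 of the 9 genes, OSGIN1 being the exception, against 45.6% of all genes tested. Because the 9 genes were chosen with earlier results of these data known, the shares set beside all genes are a description.

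**Figure D1:**
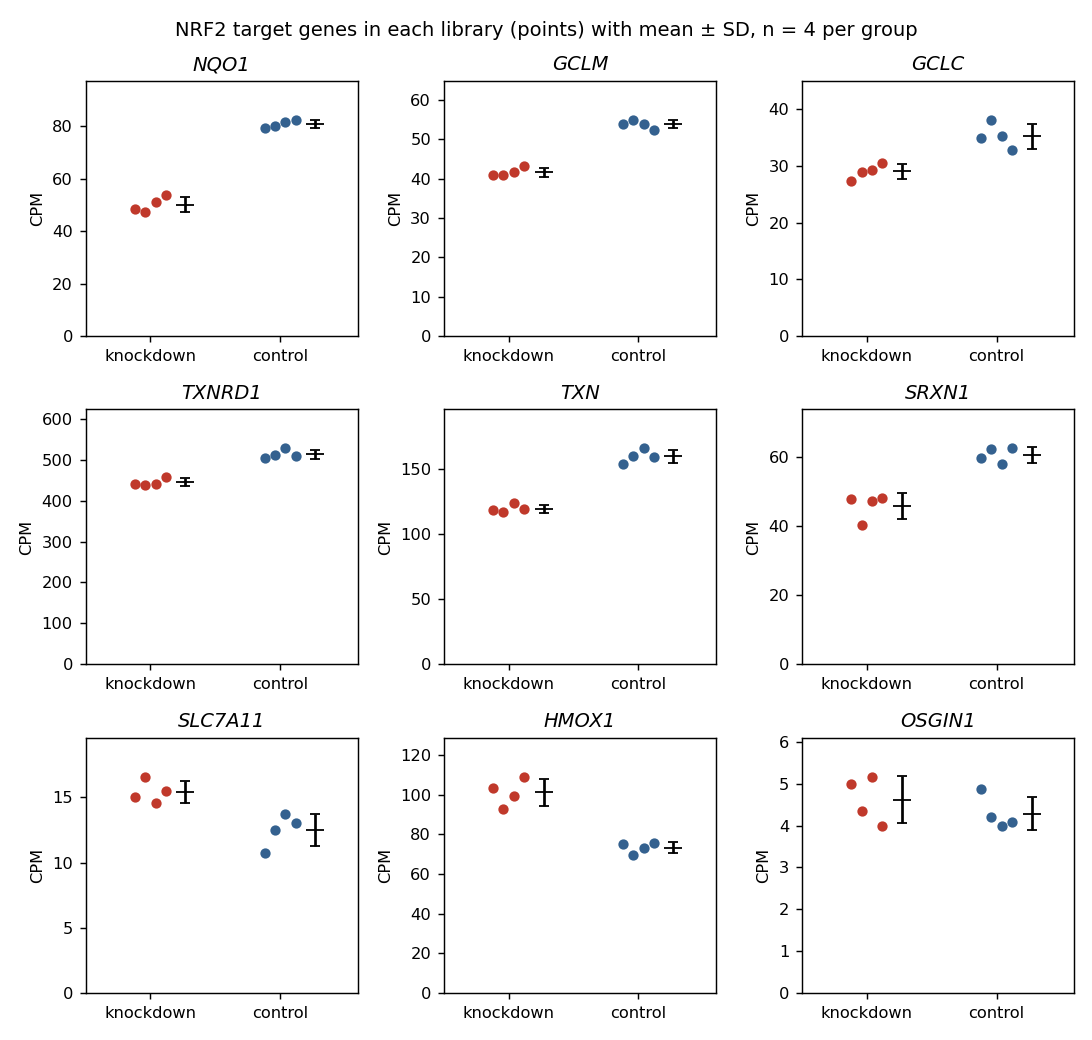
CPM of the 9 NRF2 target genes in each ATOH8 knockdown library (left, red) and each control library (right, blue), with mean ± SD (n = 4 per group) beside the points and axes from 0. The knockdown points lie below all control points for NQO1, GCLM, GCLC, TXNRD1, TXN and SRXN1, above them for SLC7A11 and HMOX1, and among them for OSGIN1.

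NQO1 encodes a quinone reductase that moves a pair of electrons at once and so avoids semiquinone radicals; its transcript is a standard readout of NRF2 activity. NQO1 (ENSG00000181019.13, chromosome 16) was at 48.4, 47.2, 51.3 and 53.9 CPM in knockdown libraries, against 79.4, 80.0, 81.8 and 82.5 CPM in control libraries. All knockdown libraries lay well below the lowest control library, and the fall was the largest among the 9 genes. The means were 50.2 ± 2.98 CPM in knockdown and 80.9 ± 1.46 CPM in control libraries (SD, n = 4 each), and the log2 fold change was -0.69 (SE 0.040, edgeR adjusted p = 1.86e-14). Of all genes tested, 90.6% changed by less in size. Each library held 1125 to 2133 counts of NQO1.

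Glutathione, the main soluble thiol of the cell, is made from cysteine, glutamate and glycine. Its first and rate-limiting step is catalysed by glutamate-cysteine ligase, which consists of the catalytic subunit GCLC and the modifier subunit GCLM. GCLM (ENSG00000023909.10, chromosome 1) was at 40.9, 40.8, 41.8 and 43.3 CPM in knockdown libraries, against 54.1, 55.0, 54.0 and 52.5 CPM in control libraries. GCLC (ENSG00000001084.13, chromosome 6) was at 27.3, 28.9, 29.3 and 30.6 CPM in knockdown libraries, against 34.9, 38.1, 35.2 and 32.8 CPM in control libraries. Groups did not overlap for either subunit, though the highest knockdown and the lowest control library came close for GCLC. The log2 fold change was -0.37 for GCLM (SE 0.040, edgeR adjusted p = 6.94e-09) and -0.28 for GCLC (SE 0.051, edgeR adjusted p = 3.30e-05).

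The ratio of the subunits' counts does not depend on how libraries are scaled. GCLC counts per GCLM count were 0.668, 0.707, 0.702 and 0.707 in knockdown libraries, against 0.646, 0.694, 0.652 and 0.625 in control libraries. The groups overlapped, and the log2 difference of 0.09 (knockdown minus control) did not pass a two-sided exact permutation test, which has 70 ways to divide the libraries (p = 0.0571, adjusted p = 0.0857 over the 3 ratios tested).

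SLC7A11, the light chain of the exchanger that imports cystine for glutathione synthesis, went the other way. SLC7A11 (ENSG00000151012.13, chromosome 4) was at 15.1, 16.6, 14.5 and 15.5 CPM in knockdown libraries, against 10.8, 12.5, 13.7 and 13.0 CPM in control libraries. Every knockdown library was above every control library, with a narrow gap between the lowest of one group and the highest of the other (log2 fold change 0.31, SE 0.072, edgeR adjusted p = 0.000607). SLC3A2, its heavy chain, which also serves other amino acid transporters, was at 128 ± 4.58 CPM in knockdown and 113 ± 3.95 CPM in control libraries and rose as well (log2 fold change 0.17, SE 0.035, edgeR adjusted p = 0.000163). SLC7A11 counts per SLC3A2 count were 0.121 ± 0.0101 in knockdown and 0.110 ± 0.00984 in control libraries (SD, n = 4 each), and the groups overlapped (two-sided exact permutation p = 0.257, adjusted p = 0.257 over the 3 ratios).

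SLC7A11 is also a target of ATF4, the transcription factor of the amino acid response. Among 7 listed genes of that response, CHAC1 included, 5 rose and 0 fell by edgeR at the adjusted threshold (1 fell at an unadjusted p under 0.05, ATF4 itself), and the median log2 fold change was 0.29. Of all genes tested, 25.2% rose and 25.9% fell. The one that rose most was CHAC1, an enzyme that degrades glutathione, at 8.37 ± 0.372 CPM in knockdown and 5.35 ± 0.360 CPM in control libraries (log2 fold change 0.64, SE 0.090). TRIB3, a pseudokinase (log2 fold change 0.51, SE 0.046), and SESN2, a sensor of leucine (log2 fold change 0.48, SE 0.036), rose too, whereas for ATF4 itself the log2 fold change was -0.08 (SE 0.032, edgeR adjusted p = 0.0519), and it passed without knockdown replicate 1, without knockdown replicate 4 and with the replicate number as a block. PSAT1, an enzyme of serine synthesis, did not pass either (log2 fold change -0.07, SE 0.037, edgeR adjusted p = 0.111). The part of the 5 genes that rose in the rise of SLC7A11 was not tested.

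The thioredoxin system passes electrons from NADPH through the selenoenzyme thioredoxin reductase (TXNRD1) to thioredoxin (TXN), which reduces protein disulfides and peroxiredoxins. TXN (ENSG00000136810.13, chromosome 9) was at 118.5, 117, 124 and 119.6 CPM in knockdown libraries, against 154, 160.3, 166 and 159 CPM in control libraries. TXNRD1 (ENSG00000198431.16, chromosome 12) was at 440.2, 439, 440.0 and 459 CPM in knockdown libraries, against 503, 512, 527 and 508 CPM in control libraries. Both groups of libraries were tight and apart for both genes, with knockdown replicate 4 somewhat above the rest for TXNRD1. The log2 fold change was -0.42 for TXN (SE 0.033, edgeR adjusted p = 1.69e-11) and -0.21 for TXNRD1 (SE 0.030, edgeR adjusted p = 1.20e-06), the smallest fall of the 6. Rows for 7 processed pseudogenes of TXN held 0 to 8 counts over all 8 libraries together.

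TXNRD1 counts per TXN count were 3.71, 3.75, 3.54 and 3.84 in knockdown libraries, against 3.27, 3.20, 3.17 and 3.19 in control libraries. Every knockdown library had a higher ratio than any control library, by 1.16-fold on average. By the two-sided exact permutation test p was 0.0286, which is the smallest that groups of 4 and 4 allow. The adjusted p was 0.0857 over the 3 ratios, which does not pass the threshold. A ratio that alone reaches the smallest p cannot pass this adjustment, so the adjusted test could not decide.

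SRXN1 encodes sulfiredoxin, which restores peroxiredoxins whose active cysteine has been over-oxidised. SRXN1 (ENSG00000271303.1, chromosome 20) was at 47.6, 40.3, 47.1 and 48.2 CPM in knockdown libraries, against 59.6, 62.4, 57.7 and 62.4 CPM in control libraries. All knockdown values lay below the control values, with knockdown replicate 2 the lowest by a clear margin. The log2 fold change was -0.41 (SE 0.048, edgeR adjusted p = 1.11e-07), and it was -0.35 without that library.

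HMOX1, heme oxygenase 1, opens the heme ring and releases iron, carbon monoxide and biliverdin; BACH1 is its best known repressor. HMOX1 (ENSG00000100292.17, chromosome 22) was at 103, 92.7, 99.6 and 109 CPM in knockdown libraries, against 75.0, 69.6, 73.4 and 75.5 CPM in control libraries. The lowest knockdown library stood well above the highest control library. HMOX1 averaged 101 ± 6.88 CPM in knockdown and 73.4 ± 2.67 CPM in control libraries (SD, n = 4 each), so the log2 fold change was 0.46 (SE 0.043, edgeR adjusted p = 1.23e-09). This was the largest rise of the 9 genes, while NQO1 fell by 0.69 on the same scale.

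OSGIN1, oxidative stress induced growth inhibitor 1, was the least abundant of the 9 genes by CPM. OSGIN1 (ENSG00000140961.14, chromosome 16) was at 4.99, 4.36, 5.17 and 3.98 CPM in knockdown libraries, against 4.87, 4.20, 3.99 and 4.07 CPM in control libraries, from 84 to 130 counts per library. The groups overlapped, and the log2 fold change was 0.10 (SE 0.116, edgeR adjusted p = 0.483), with a 95% interval of -0.13 to 0.33. A fall as large as that of GCLC lies outside this interval, and a rise as large as that of SLC7A11 lies just inside it.

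**Figure D2:**
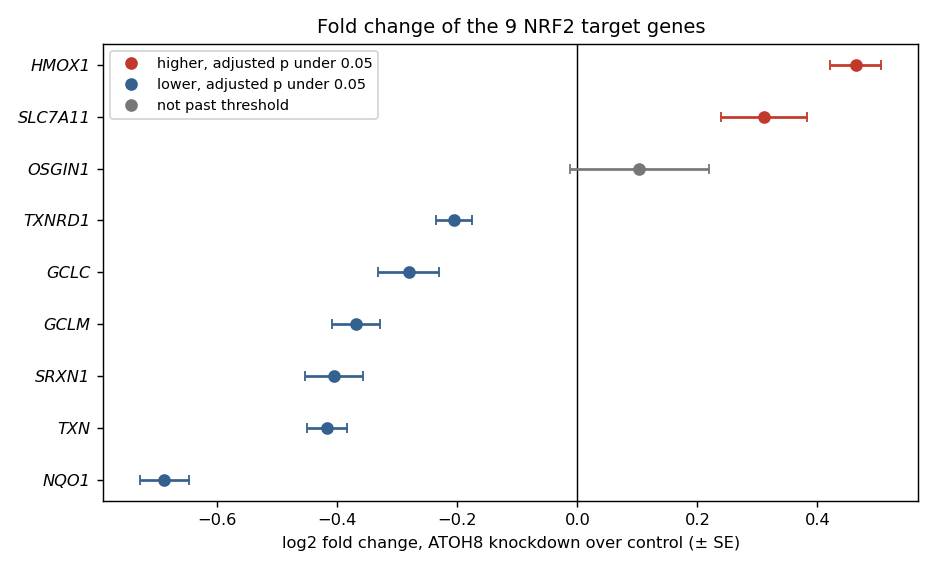
Log2 fold change of ATOH8 knockdown over control with its SE for the 9 genes, ordered from the highest at the top (HMOX1, 0.46) to the lowest at the bottom (NQO1, -0.69). Red marks genes that rose, blue genes that fell and grey OSGIN1, which did not pass the test.

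Some libraries were high or low for several of the genes. Knockdown replicate 4 held the highest value of the group for NQO1, GCLM, GCLC, TXNRD1, SRXN1 and HMOX1 and the lowest for OSGIN1. Knockdown replicate 2 held the lowest value for NQO1, GCLM, TXNRD1, TXN, SRXN1 and HMOX1 and the highest for SLC7A11. In log2 CPM, deviations of knockdown libraries from the group mean were at most 0.20 and smaller than the differences between the groups for every gene that passed the test.

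Reads of overlapping genes could be shared, since the counting settings are not known. An antisense gene over GCLC, AL033397.2, held 14 counts over all 8 libraries together, and SLC7A11-AS1 held 2. AL033397.1 over GCLC and AL121758.1 over SRXN1 lie on the same strand, share exons with those genes and held 0 counts. Whether reads of these shared exons were left out of the counts is not known. OSGIN1 overlaps the readthrough gene AC009119.2 on its own strand, which was not analysed here. RPL18AP3, a ribosomal protein pseudogene within TXNRD1 on the same strand, held 40153 counts but shares no annotated exon with it.

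Levels of different genes were compared per kilobase of annotated exon, in TPM, which scales each library to the same sum. TXN was the highest, at 414 ± 6.25 TPM in knockdown and 541 ± 24.0 TPM in control libraries, followed by TXNRD1 at 262 ± 6.69 TPM and 295 ± 9.70 TPM and HMOX1 at 166 ± 11.3 TPM and 118 ± 3.53 TPM (knockdown and control, SD, n = 4 each). The next pair in the order exchanged places. NQO1 was at 57.8 to 65.5 TPM and SRXN1 at 59.4 to 70.7 TPM in knockdown libraries, ranges that overlap, whereas in control libraries NQO1, at 92.3 to 98.1 TPM, was above SRXN1, at 83.5 to 90.2 TPM. GCLM followed at 30.4 ± 0.854 TPM in knockdown and 38.4 ± 1.01 TPM in control libraries, and GCLC at 13.2 ± 0.622 TPM and 15.8 ± 1.09 TPM. The lowest levels were those of SLC7A11, at 5.86 to 6.85 TPM in knockdown and 4.22 to 5.54 TPM in control libraries, and OSGIN1, at 4.56 to 5.80 TPM and 4.50 to 5.33 TPM, and this pair overlapped in control libraries and not in knockdown libraries.

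**Figure D3:**
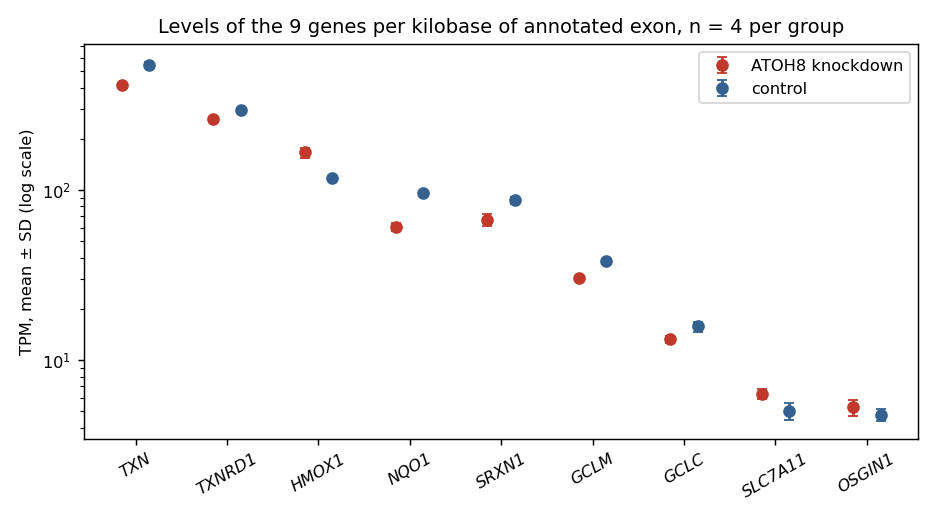
Level of each gene in TPM on a log axis, mean ± SD over the 4 ATOH8 knockdown libraries (red, left of each pair) and the 4 control libraries (blue, right), ordered by the control level from TXN to OSGIN1. Bars smaller than the points are hidden by them. HMOX1, SLC7A11 and OSGIN1 have the knockdown point above the control point.

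**Figure D4:**
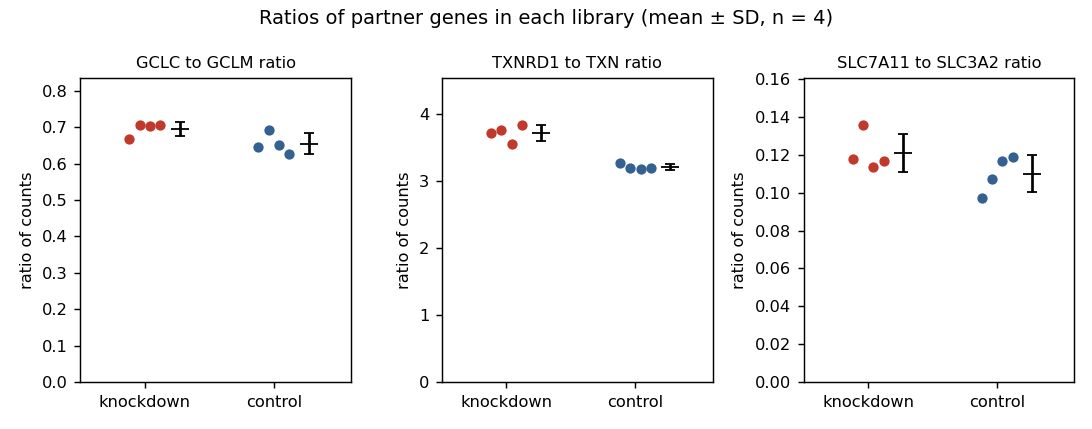
Counts of GCLC per count of GCLM, of TXNRD1 per count of TXN and of SLC7A11 per count of SLC3A2 in each ATOH8 knockdown library (left, red) and each control library (right, blue), with mean ± SD (n = 4 per group). The groups are apart for the TXNRD1 to TXN ratio and overlap for the other two ratios.

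The transcript of NRF2 itself was lower in knockdown. NFE2L2 was at 113, 117, 107 and 113 CPM in knockdown libraries, against 152, 146, 142 and 157 CPM in control libraries, with no overlap (log2 fold change -0.41, SE 0.036, edgeR adjusted p = 1.36e-10). NRF2 is controlled mostly through the stability of its protein, which was not measured. KEAP1, its inhibitor, was at 61.6 ± 2.31 CPM in knockdown and 62.9 ± 1.38 CPM in control libraries and did not pass the test (log2 fold change -0.03, SE 0.038, edgeR adjusted p = 0.509). The ligase scaffold gene CUL3 (log2 fold change -0.25, SE 0.036) fell, as did SQSTM1, which encodes p62, an adaptor that can sequester KEAP1 (log2 fold change -0.26, SE 0.031).

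BACH1, the repressor at the same elements, was at 52.9 to 55.8 CPM in knockdown and 50.6 to 53.6 CPM in control libraries and did not pass the test (log2 fold change 0.06, SE 0.039, edgeR adjusted p = 0.185). Of the small MAF partners, MAFF fell (log2 fold change -0.17, SE 0.047, edgeR adjusted p = 0.00337) and MAFK did not pass (log2 fold change 0.01, SE 0.054, edgeR adjusted p = 0.936). MAFG passed narrowly (log2 fold change -0.12, SE 0.048, edgeR adjusted p = 0.0433), with overlapping groups, and it no longer passed without any 1 of knockdown replicates 2, 3 and 4 and control replicates 2, 3 and 4 (adjusted p = 0.0858 to 0.128), with a filter of 1 CPM in 4 libraries (0.0519) and with the replicate number as a block (0.176). NFE2L1, the related factor NRF1, rose slightly (log2 fold change 0.09, SE 0.029, edgeR adjusted p = 0.00705). Of the 11 listed genes of NRF2 control, 1 rose, 5 fell and 5 did not pass, a share called of 54.5% that is near the 51.1% of all genes tested.

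**Figure D5:**
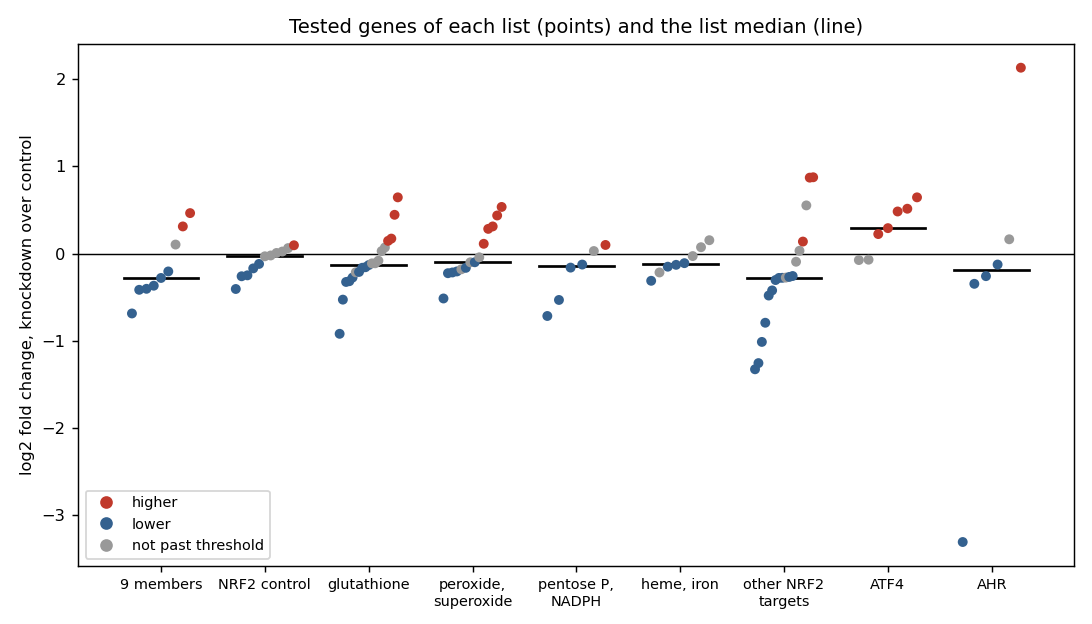
Log2 fold change of ATOH8 knockdown over control for every tested gene (points) of the 9 target genes and of 8 lists around them, with the list median as a line. Red points rose, blue points fell and grey points did not pass the test. The median is below 0 for all lists except the ATF4 list, and the AHR list holds both the lowest point (UGT1A6, -3.31) and the highest (CYP1A1, 2.13).

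Across 6 lists of NRF2 control, glutathione, peroxide and superoxide, pentose phosphate and NADPH, heme and iron, and other NRF2 target genes, 76 of 78 genes were tested. Of these, 39 were called lower, 14 higher and 23 neither, and the median log2 fold change was -0.13. The shares were 18.4% higher and 51.3% lower, against 25.2% and 25.9% over all genes tested. Because these lists too were chosen with earlier results of these data known, their shares are a description.

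Among 19 tested genes that make, use or recycle glutathione, 9 were called lower, 4 higher and 6 neither, and the median log2 fold change was -0.13. The share called was 68.4%, against 51.1% of all genes tested. MGST1, a microsomal glutathione transferase, was at 63.4 ± 4.32 CPM in knockdown and 120 ± 1.70 CPM in control libraries (log2 fold change -0.92, SE 0.040, edgeR adjusted p = 1.76e-17), a larger change than that of any of the 9 target genes. Its relative MGST3 (log2 fold change -0.33, SE 0.039) and the endoplasmic reticulum peroxidase gene GPX8 (log2 fold change -0.28, SE 0.037) fell as well. GPX1, the cytosolic glutathione peroxidase, rose (271 ± 12.4 CPM in knockdown and 199 ± 9.97 CPM in control libraries, log2 fold change 0.44, SE 0.037).

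Peroxide and superoxide enzymes divided. Of 14 tested genes, 5 rose, 6 fell and 3 did not pass. That is 35.7% that rose and 42.9% that fell, against 25.2% and 25.9% of all genes tested. SOD2, the manganese superoxide dismutase of mitochondria and also a gene induced by inflammatory signals, fell (log2 fold change -0.52, SE 0.033), as did the peroxiredoxin genes PRDX1 (log2 fold change -0.22, SE 0.034) and PRDX6 (log2 fold change -0.21, SE 0.032). Catalase, CAT, rose (70.3 ± 1.12 CPM in knockdown and 51.9 ± 1.31 CPM in control libraries, log2 fold change 0.44, SE 0.037). TXNIP, an inhibitor of thioredoxin (log2 fold change 0.31, SE 0.035), and TXNRD2, the mitochondrial thioredoxin reductase (log2 fold change 0.28, SE 0.062), also rose, while cytosolic TXN and TXNRD1 fell.

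Of 6 enzymes of the pentose phosphate pathway and of NADPH supply, 4 fell, 1 rose and 1 did not pass. The share called was 83.3%, against 51.1% of all genes tested. The list holds TALDO1, which fell, and TKT, which did not pass, enzymes of the pathway's non-oxidative branch that make no NADPH themselves. IDH1, the cytosolic isocitrate dehydrogenase, was at 36.6 ± 1.04 CPM in knockdown and 60.3 ± 2.29 CPM in control libraries (log2 fold change -0.72, SE 0.042), and malic enzyme, ME1, fell by 0.53 on the log2 scale (SE 0.040). TALDO1, transaldolase of the pentose phosphate pathway, fell less (log2 fold change -0.16, SE 0.033). PGD, which makes NADPH in that pathway, rose by a small amount (log2 fold change 0.10, SE 0.037, edgeR adjusted p = 0.0285) with overlapping groups, and its call was lost without any 1 of knockdown replicates 1 and 3 and control replicates 2, 3 and 4 (adjusted p = 0.0717 to 0.119).

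Of 8 tested genes around heme and iron, 4 fell and 0 rose by edgeR at the adjusted threshold. The share called was near the 51.1% of all genes tested, of which 25.2% rose and 25.9% fell. An unadjusted p under 0.05 by edgeR was reached by 9490 of all 16884 genes tested, in either direction. In this list, 5 genes were lower and 1 was higher at that level. The higher one was FTL, the ferritin light chain, named after its value was seen, which passed by the Wald test of DESeq2 (adjusted p = 0.0313) and, by edgeR, with a filter of 1 CPM in 4 libraries (0.0425) and with the replicate number as a block (0.0240). FTH1, the ferritin heavy chain, fell (log2 fold change -0.31, SE 0.031), although it has many processed copies that could share its reads, and the transferrin receptor gene TFRC (log2 fold change -0.15, SE 0.031) and the biliverdin reductase gene BLVRA (log2 fold change -0.13, SE 0.043) fell too. SLC48A1, a heme transporter grouped here with other NRF2 targets, rose to 59.5 ± 1.77 CPM in knockdown, against 32.6 ± 1.43 CPM in control libraries (log2 fold change 0.87, SE 0.043, edgeR adjusted p = 4.54e-16).

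Of 18 other commonly used NRF2 target genes, 11 were called lower, 3 higher and 4 neither, and the median log2 fold change was -0.28. The share called was 77.8%, against 51.1% of all genes tested. AKR1C3, an aldo-keto reductase with similar relatives among which some reads may be divided, fell (log2 fold change -1.33, SE 0.107). The efflux pump gene ABCC4 (log2 fold change -0.48, SE 0.038) and UGDH, which makes UDP-glucuronic acid (log2 fold change -0.42, SE 0.040), fell too. Besides SLC48A1, the efflux pump genes ABCC1 (log2 fold change 0.14, SE 0.035) and ABCC2 (log2 fold change 0.88, SE 0.263, at 1.11 CPM in knockdown and 0.610 CPM in control libraries) rose.

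NQO1 is also a member of the gene battery of the aryl hydrocarbon receptor, a ligand-activated transcription factor. Of 6 tested genes of that axis, 1 rose, 4 fell and 1 did not pass, against 25.2% of all genes tested that rose and 25.9% that fell. CYP1A1, its best known target, was at 8.43 ± 0.464 CPM in knockdown and 1.91 ± 0.447 CPM in control libraries (log2 fold change 2.13, SE 0.127), whereas CYP1B1 (log2 fold change -0.35, SE 0.082), the receptor gene AHR (log2 fold change -0.26, SE 0.032) and UGT1A6, whose row shares exons with other genes of its locus (log2 fold change -3.31, SE 0.082), fell. The part of this axis in the fall of NQO1 was not tested.

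Among all tested genes other than the 9, those whose log2 CPM followed NQO1 most closely over the 8 libraries were CCT3, DTWD2, SCNM1, SKP1 and RAB2A, with Pearson r from 0.996 to 0.998. An r of at least 0.95 was reached by 1171 genes, and the 8 points share the division into groups, so these values are a description. Over the same libraries r with NQO1 was 0.99 for GCLM, 0.99 for TXN, 0.98 for TXNRD1, 0.95 for SRXN1, 0.91 for GCLC, -0.42 for OSGIN1, -0.82 for SLC7A11 and -0.92 for HMOX1.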

How the data were processed

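The deposited table holds whole-number counts per gene for 8 libraries, taken here as raw read counts because their totals differ. The submitters' processing notes name the build hg19 and the tools FastQC, STAR, featureCounts and DESeq2, with no versions. Annotation, strand setting and handling of ambiguous reads are not stated there, so reads shared between overlapping or near-identical genes could be split, lost or counted elsewhere. Per the labels' protocols, poly(A) RNA was made into directional libraries when its integrity number exceeded 7.0.

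Of 60609 rows, 1 with a missing cell and 44 Y copies of pseudoautosomal genes, all without counts, were left out. Symbols came from a gene name table for 60295 rows and GENCODE release 29 for 250, and exon lengths for TPM from GENCODE release 29, which describes GRCh38 and not hg19. Counts were filtered with filterByExpr, scaled by TMM and compared with the quasi-likelihood F test of edgeR 4.0.16 (limma 3.58.1, R 4.3.3), with robust dispersion and Benjamini-Hochberg adjustment over 16884 genes. SEs were derived from the F statistic, and the 95% interval is 1.96 SE on each side. Ratios of counts were compared by exact permutation over the 4 and 4 libraries in Python 3.11.15.

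On counts simulated for this comparison, where 16678 genes passed the filter, the fit recovered 100 of 100 genes changed 2-fold and 80 of 100 changed 1.3-fold, and 3.74% of the 187 calls were unchanged genes. The changed genes were drawn only from those above a minimum mean count, and far fewer genes changed than were called in the real data. These rates therefore do not describe genes with low counts. Pairs of libraries within a group differed by a chi-square per gene of 1.90 to 4.48, so none agreed within sampling noise.

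The 9 genes, the 13 other lists and the tests were chosen with earlier results of these data known. Named genes were the 9, the regulators, SLC3A2, up to 3 rising and 3 falling genes per list by adjusted p, and the 5 genes most like NQO1. Not all the rule allows are printed for the marker and aryl hydrocarbon receptor lists, and ATF4, PSAT1 and TKT were added after their values were seen. Alternatives were size factors from DESeq2, its Wald test (version 1.42.0), a minimum of 1 count in total, a minimum of 1 CPM in any 4 libraries, a block for replicate number, and leaving out each library. The values of 1 listed podocyte marker are not reported here.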

Additional observations from a re-analysis of the deposited data

Results flagged for a closer look

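Of the values named here, some groups of 4 libraries held 1 library far from the other 3, by a gap whose share of the group's range exceeds Dixon's 95% critical value. Chance gives this in about 1 of 20 groups, and it was found in 9 of 132 groups examined. Among the target genes these were TXNRD1 in knockdown replicate 4, at 459 CPM against 439 to 440.2 CPM in the others, and SRXN1 in knockdown replicate 2, at 40.3 CPM against 47.1 to 48.2 CPM. GCLC counts per GCLM count were lowest in knockdown replicate 1, at 0.668 against 0.702 to 0.707. Knockdown replicate 2 was also lowest for GPX1, at 253 CPM against 275 to 279 CPM, and for SESN2, at 84.3 CPM against 90.2 to 91.2 CPM. Knockdown replicate 1 was highest for NFE2L1, at 424 CPM against 411 to 413 CPM, and lowest for TFRC, at 267 CPM against 286 to 289 CPM. In the control group, replicate 3 was lowest for SOD2, at 2839 CPM against 2948 to 2968 CPM, and replicate 2 was highest for MAFK, at 23.2 CPM against 22.6 to 22.7 CPM.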

How the results depend on the processing

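The counts of 6 falling and 2 rising genes among the 9 were the same under all 13 alternatives, and so were the direction and the call of each of the 9 genes. The log2 fold change ran from -0.72 to -0.66 for NQO1, from 0.42 to 0.51 for HMOX1, from 0.24 to 0.35 for SLC7A11 and from 0.05 to 0.17 for OSGIN1. Between 7755 and 8979 genes changed over all alternatives, and 49 to 55 of the genes of the 6 pathway lists. Whether the replicate numbers pair the libraries was not settled: deviations of same-numbered libraries correlated by 0.00143 to 0.0574. Libraries numbered 1, 2 and 4 correlated best with their own number in both groups, and those numbered 3 did not. With the replicate block 8802 genes changed, and 8 of the 9 genes. Sign flips of the replicate differences, the block for the ratios, cannot give a p under 0.125 and gave adjusted p = 0.188 for GCLC to GCLM and TXNRD1 to TXN and 0.500 for SLC7A11 to SLC3A2. MAFK, which did not pass, had log2 fold changes from -0.0336 to 0.0410 when 1 library was left out. The count of pentose phosphate and NADPH genes that rose was 0 to 1 when 1 library was left out, and of the heme and iron genes FTL rose under 5 alternatives, among them the replicate block, and BLVRB under 1, without control replicate 4 (both chosen after their values were seen; the cause was not tested). OSGIN1, with the fewest counts, is the least precisely measured of the 9.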
